A study of Homo sapiens with 8 samples.

Results

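The genes described here encode the kinases that phosphorylate SR proteins and their nearest functional neighbours, in U251 cells treated with the PRMT5 inhibitor LLY-283. Members were the rows whose gene name was CLK1, CLK2, CLK3, CLK4, SRPK1, SRPK2, DYRK1A, PRPF4B, SON or SRRM2. All 10 were found once among the 61906 genes listed, and all 10 passed the filter on low values (1 TPM or more on average across the 8 libraries), which 14478 genes passed. U251 is an established human glioblastoma cell line, labelled as wild type, and LLY-283 inhibits PRMT5, the main enzyme of symmetric arginine dimethylation. RNAseq was performed on 4 cultures treated with vehicle (DMSO) and 4 treated with LLY-283 at 100 nM, each for 24 h. The replicates are labelled as biological replicates of the same line at a single dose and time.

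SR proteins bind exons and recruit the spliceosome through a tail rich in arginine and serine, and the phosphate groups on those serines decide where the protein goes and what it binds. SRPKs phosphorylate SR proteins in the cytoplasm so that they can enter the nucleus, and CLKs add further phosphate in the nucleus and release them from nuclear speckles, the compartments in which splicing factors are stored. DYRK1A also phosphorylates splicing factors, PRPF4B phosphorylates proteins of the tri-snRNP during spliceosome assembly, and SON and SRRM2 are very large proteins rich in arginine and serine that form the core of the speckle. PRMT5 acts on the same machinery by methylating Sm proteins and other splicing proteins.

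The 4 CLKs are paralogs that share a signature in the kinase domain known as the LAMMER motif. The bases that encode it are shown as a short example of how the coding sequences of the family differ. They were read 5′ to 3′ from the canonical transcripts of GENCODE release 44, and capitals mark the bases that differ from CLK1.
CLK1: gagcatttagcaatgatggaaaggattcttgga
CLK2: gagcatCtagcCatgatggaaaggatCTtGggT
CLK3: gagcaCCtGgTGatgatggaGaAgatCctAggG
CLK4: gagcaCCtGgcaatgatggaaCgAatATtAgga
Within these 33 bases CLK2 differed from CLK1 at 6, CLK4 at 8 and CLK3 at 10 positions. Over the aligned part of the whole coding sequence, identity was highest between CLK1 and CLK4 (78.0%) and lowest between CLK1 and CLK3 (62.7%), and SRPK1 and SRPK2 were 70.3% identical. No stretch of 50 bases of the CLK1, CLK4 or SRRM2 canonical transcript occurred in the transcripts of another gene. In CLK2, 6.13% of such stretches occurred in the pseudogene CLK2P1, which had at most 0.38 TPM in any library. In SRPK1, 42.7% occurred on the opposite strand in the overlapping gene LHFPL5, which had at most 0.07 TPM. In CLK3, 3.32% occurred in ENSG00000276667, listed at 0 in all libraries. In SON, 1.74% occurred elsewhere, most of them (1.43%) in the overlapping gene DONSON, which was expressed (29.38 to 37.23 TPM). The shares were 2.07% in SRPK2, 1.86% in PRPF4B and 0.878% in DYRK1A. The pseudogenes CLK3P2, PRPF4BP1 and SRPK2P had between 0 and 0.92 TPM.

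Expression was estimated by the authors as TPM, the abundance of a gene's transcripts as a share of the library. TPM is divided by transcript length, so levels can be compared between genes, but it keeps no read number, so sequencing depth is unknown. Of 6 glial genes, all were detected in every library, from VIM (4018.59 to 4390.24 TPM), CD44, GFAP (662.82 to 839.89 TPM) and NES at the high end to EGFR (22.72 to 25.54 TPM) and S100B (2.34 to 4.94 TPM) at the low end, while 7 markers of blood, endothelial and epithelial cells did not exceed 0.33 TPM in any library. GFAP and NES were called decreased with LLY-283 (log2 fold changes -0.25 and -0.17, adjusted p-values 0.000820 and 0.000731, limma) and CD44 increased (0.11, adjusted p = 0.0168). PRMT5 itself was at 100.0 ± 5.03 TPM with vehicle and 100.4 ± 4.91 TPM with LLY-283 (SD, n = 4 each). The LLY-283 library of replicate 4 lay apart from the others. Genes of the mitochondrial genome made up 7.19% of its TPM, against 10.61% to 11.0% in the other LLY-283 libraries and 10.15% to 10.75% in the vehicle libraries, and it was the lowest of the LLY-283 libraries for 8 of the 10 members against 37.5% of all genes tested. This was not particular to the members, as it was also the lowest for most of the SR-related and speckle proteins described below. The members' results are therefore given with and without it. Vehicle replicate 2 also stood apart within its group, at -39.8 on the second principal component against -4.86 to 0.84 in the other vehicle libraries, and results that turn on it are given without it too. What set these libraries apart was not tested.

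Fold changes come from limma on log2(TPM + 0.1), fitted across all 14478 genes, with p-values adjusted by the Benjamini-Hochberg method, and a gene was called when its adjusted p-value was under 0.05. Among the members, PRPF4B rose 1.25-fold and SRPK2 fell to 0.880 of its vehicle level, and the other 8 were not called. That is 2 of 10 members, against 26.2% of all genes tested, so the members were not called more often than genes in general. No member passed a 1.5-fold change, which together with the adjusted p-value 3.87% of all genes did. The median log2 fold change was 0.02 over the members and -0.05 over all genes tested. Without LLY-283 replicate 4, 4 members were called increased (CLK2, CLK4, PRPF4B and SON), against 10.4% of all genes, and 1 decreased (SRPK2), against 18.4%. As that library was set aside partly for its low values in the members, no conclusion is drawn from these shares.

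**Figure D1:**
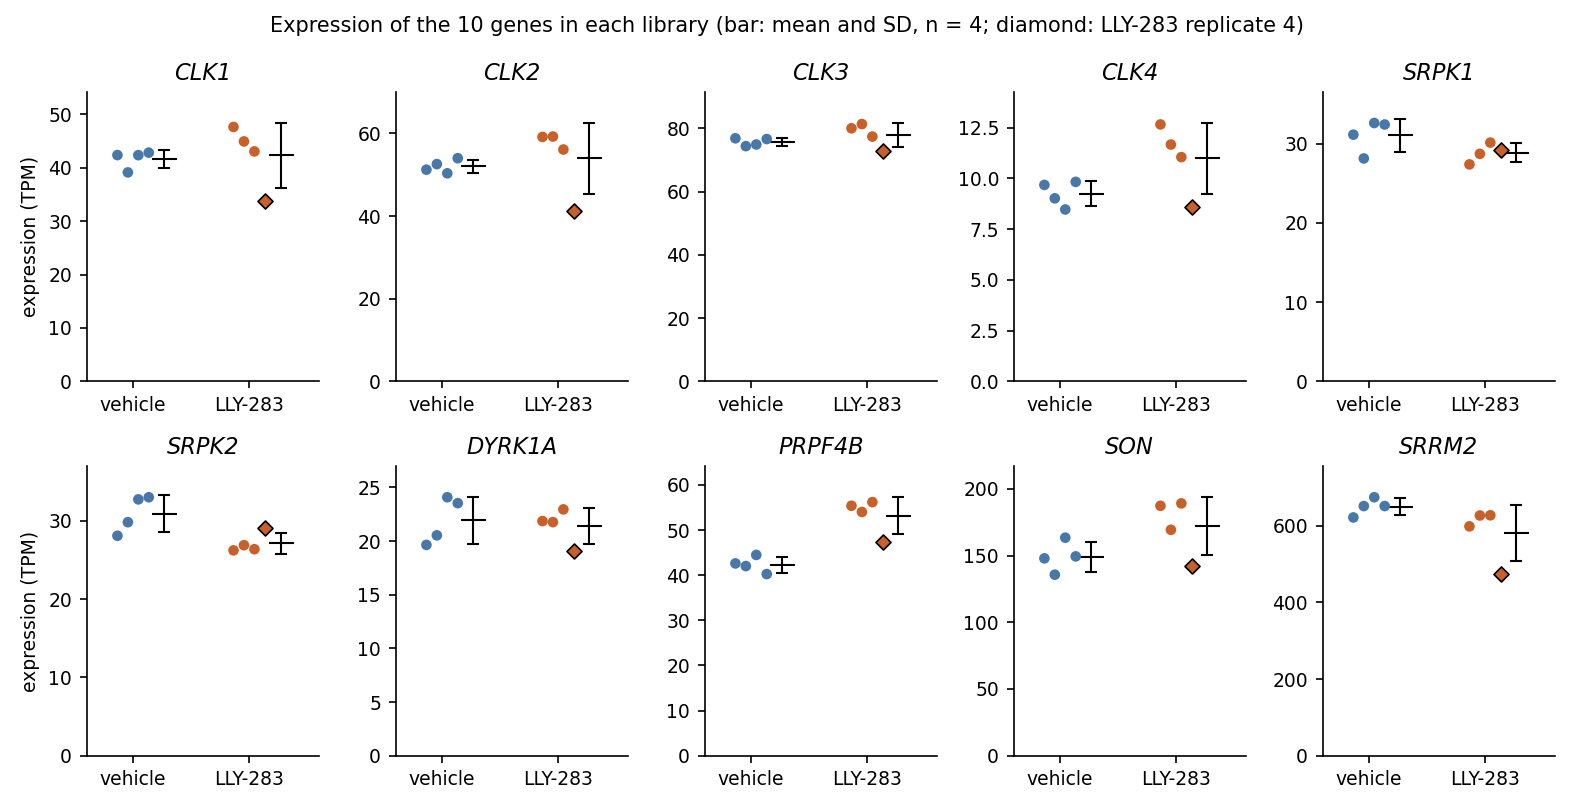
Expression in TPM (vertical axes, starting at 0) of each of the 10 genes in the 4 vehicle and 4 LLY-283 libraries; each point is a library, the bar beside each group is its mean and SD (n = 4), and the diamond is LLY-283 replicate 4. PRPF4B is the member whose groups do not overlap (40.25 to 44.49 against 47.31 to 56.2 TPM), and the diamond is the lowest LLY-283 point in 8 of the 10 panels.

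PRPF4B (ENSG00000112739, chr6:4021267-4064983 of GRCh38 in GENCODE release 44, as for all positions of genes given here, plus strand), the kinase of tri-snRNP proteins, was the member with the clearest change. It had 42.61, 42.02, 44.49 and 40.25 TPM in replicates 1 to 4 of vehicle and 55.39, 54.01, 56.2 and 47.31 TPM in replicates 1 to 4 of LLY-283. Every LLY-283 library was above every vehicle library, and PRPF4B was the only member for which this held, against 9.63% of all genes tested with every LLY-283 library higher and 19.6% with every LLY-283 library lower, 29.2% in all. The mean went from 42.3 ± 1.75 up to 53.2 ± 4.05 TPM (mean ± SD of 4 libraries). This was a log2 difference of 0.33 (standard error 0.057, 95% confidence interval 0.20 to 0.46, adjusted p = 0.00328, limma). It was called under all 19 alternatives, with log2 fold changes between 0.30 and 0.41 and adjusted p-values between 0.000279 and 0.0141. Among the genes outside the members, the pattern over the 8 libraries closest to that of PRPF4B was that of PDE1C, with a root mean square difference of 0.040 between the centred log2 values.

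The CLKs are nuclear kinases that phosphorylate SR proteins on serines next to arginine and proline and are themselves autophosphorylated. CLK3 was the most abundant of them in U251 cells, followed by CLK2, CLK1 and CLK4, and this order held in all 8 libraries. Of all genes tested, 84.95% had a lower mean TPM than CLK3 and 37.45% a lower one than CLK4.
CLK1 (ENSG00000013441, chr2:200853009-200864691, minus strand) had 42.35, 39.11, 42.34 and 42.81 TPM with vehicle and 47.61, 44.91, 43.04 and 33.71 TPM with LLY-283. The first 3 LLY-283 values lay above all vehicle values and replicate 4 lay below all of them. The log2 fold change was 0.01 (95% confidence interval -0.20 to 0.22, adjusted p = 0.942, limma) with all libraries and 0.12 (0.01 to 0.22, adjusted p = 0.0979) without replicate 4, and CLK1 was called in neither fit. Its sign changed when vehicle replicate 2 or LLY-283 replicate 1, 2 or 3 was left out (-0.05 to -0.00027).
CLK2 (ENSG00000176444, chr1:155262868-155278491, minus strand) had 51.23, 52.58, 50.35 and 54 TPM with vehicle and 59.15, 59.24, 56.1 and 41.25 TPM with LLY-283. Again 3 LLY-283 libraries were above and replicate 4 was below the whole vehicle range. The log2 fold change of 0.04 (95% confidence interval -0.20 to 0.27, adjusted p = 0.825, limma) became 0.16 (0.08 to 0.24, adjusted p = 0.0115) without replicate 4, and was -0.01 without LLY-283 replicate 1 or 2. CLK2 overlaps HCN3 on the opposite strand, which had 1.95 to 3.97 TPM over the 8 libraries.
CLK3 (ENSG00000179335, chr15:74598500-74645414, plus strand) had 76.81, 74.33, 74.85 and 76.57 TPM with vehicle and 79.97, 81.31, 77.35 and 72.64 TPM with LLY-283. The arrangement of the libraries was the same as for CLK1 and CLK2, over a narrower range. The log2 fold change was 0.04 (95% confidence interval -0.05 to 0.13, adjusted p = 0.481, limma), and 0.07 (0.01 to 0.13, adjusted p = 0.0757) without replicate 4. CLK3 was called after correction for GC content and length (0.13, adjusted p = 0.0328, limma). With that correction 2730 of 14457 genes tested were called increased, against 1247 of 14478 without it. CLK3 overlaps EDC3 on the opposite strand (37.08 to 42.77 TPM), and as no source says whether counting used strand, reads in the overlap cannot be assigned with certainty.
CLK4 (ENSG00000113240, chr5:178602664-178630615, minus strand), the least abundant CLK, had 9.68, 9.02, 8.47 and 9.83 TPM with vehicle and 12.66, 11.67, 11.05 and 8.57 TPM with LLY-283. Here replicate 4 fell inside the vehicle range and the other 3 LLY-283 libraries above it. The log2 fold change was 0.23 (95% confidence interval -0.02 to 0.48, adjusted p = 0.156, limma) with all libraries and 0.35 (0.18 to 0.52, adjusted p = 0.0108) without replicate 4, the largest value among the CLKs in both fits. CLK4 was also called under quantile normalization (0.34, adjusted p = 0.0364, limma) and after correction for GC content and length (0.32, adjusted p = 0.0386). In these settings 1871 of 14478 and 2730 of 14457 genes tested were called increased, against 1247 of 14478 with neither.

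The make-up of the CLK family was described as the share of each member in the summed TPM of CLK1 to CLK4, without a test. A share within a library does not depend on how libraries are scaled to each other. The sum was 178.6 ± 3.78 TPM with vehicle and 185.1 ± 19.9 TPM with LLY-283 (SD, n = 4 each), and LLY-283 replicate 4 had the lowest sum of all libraries, 156.2 TPM. CLK3 made up 42.4% ± 0.386 of the sum with vehicle and 42.3% ± 2.87 with LLY-283, CLK2 29.1% ± 0.748 and 29.0% ± 1.74, and CLK1 23.3% ± 0.716 and 22.8% ± 0.942. For CLK3 the groups overlapped through LLY-283 replicate 4 alone (46.5%), as the other LLY-283 libraries (40.1% to 41.2%) lay below all vehicle libraries (41.8% to 42.7%). Without that library the mean shares with LLY-283 were 40.9% ± 0.657 for CLK3, 29.9% ± 0.195 for CLK2 and 23.2% ± 0.590 for CLK1 (SD, n = 3), and the sum was 194.7 ± 6.29 TPM, each of the 3 libraries (187.5 to 199.4 TPM) being above all vehicle libraries (175.0 to 183.2 TPM). For CLK1 and CLK2 the groups overlapped with and without it. The share of CLK4 was 5.38%, 5.15%, 4.81% and 5.37% in the vehicle libraries and 6.35%, 5.92%, 5.89% and 5.49% in the LLY-283 libraries. The groups did not overlap, replicate 4 included, which in TPM also held for 29.2% of all genes tested. The mean went from 5.18% ± 0.264 to 5.91% ± 0.352 (SD, n = 4 each), or to 6.05% ± 0.256 without replicate 4 (n = 3). In LLY-283 replicate 4, CLK4 itself (8.57 TPM) was within its vehicle range. There CLK1 (33.71 TPM), CLK2 (41.25 TPM) and CLK3 (72.64 TPM) were below theirs.

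**Figure D2:**
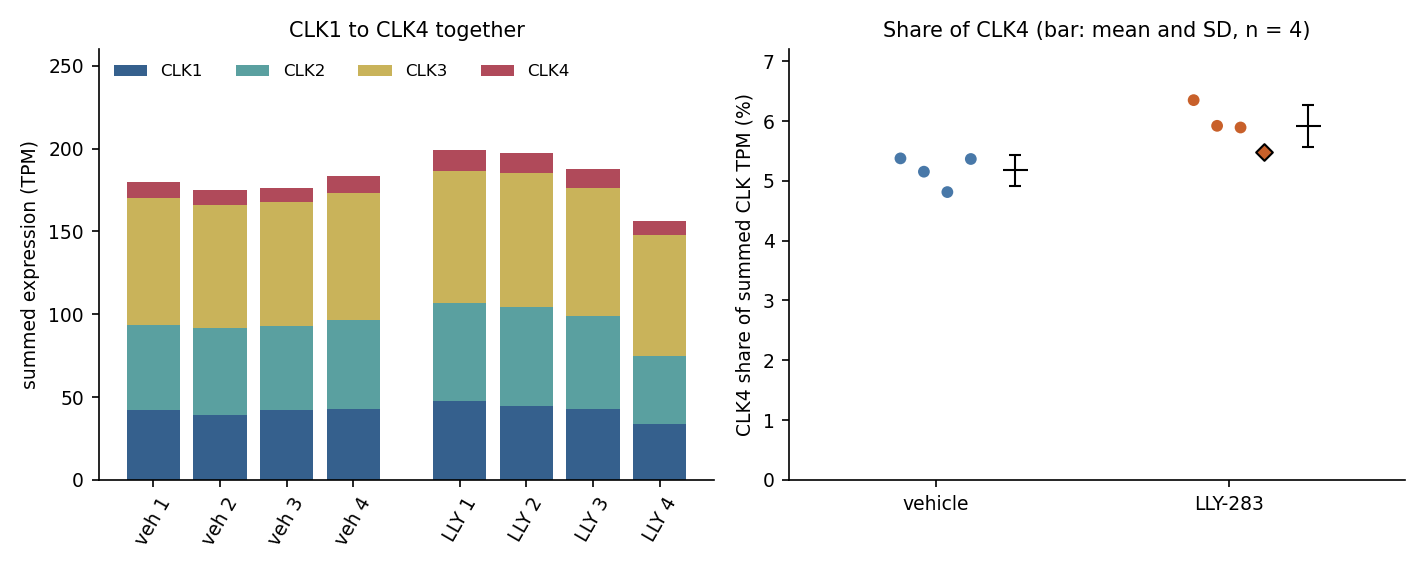
Left, summed TPM of CLK1 to CLK4 in each library (stacked bars, starting at 0); right, the share of CLK4 in that sum in percent, with each library as a point, the mean and SD of 4 libraries beside it and LLY-283 replicate 4 as a diamond. The sum is lowest in LLY-283 replicate 4 (156.2 TPM), while the share of CLK4 in all 4 LLY-283 libraries lies above the 4 vehicle libraries. In LLY-283 replicate 4 the TPM of CLK4 itself (8.57) was within the vehicle range.

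SRPK1 and SRPK2, which phosphorylate SR proteins before their import into the nucleus, were both lower in mean after LLY-283, by a small amount. SRPK1 (ENSG00000096063, chr6:35832966-35921342, minus strand) had 31.13, 28.13, 32.6 and 32.41 TPM with vehicle and 27.38, 28.71, 30.13 and 29.24 TPM with LLY-283. The groups overlapped through vehicle replicate 2. Its log2 fold change of -0.10 (95% confidence interval -0.23 to 0.02) was not called (adjusted p = 0.187, limma). Without vehicle replicate 2 it was -0.15 and was called (adjusted p = 0.0447, limma).
SRPK2 (ENSG00000135250, chr7:105110704-105399308, minus strand) had 28.11, 29.84, 32.76 and 33.03 TPM with vehicle and 26.24, 26.9, 26.39 and 29.11 TPM with LLY-283. Replicate 4, the highest LLY-283 library here, lay above vehicle replicate 1, and the other 3 LLY-283 libraries were below all vehicle libraries. The mean went from 30.9 ± 2.37 down to 27.2 ± 1.33 TPM (mean ± SD of 4 libraries), and the log2 fold change was -0.19 (standard error 0.060, 95% confidence interval -0.32 to -0.05). The adjusted p-value of 0.0475 (limma) was just inside the threshold. The call was lost under 11 of the 19 alternatives, over which the adjusted p-value ranged from 0.0228 to 0.183, and among these were the omissions of 6 single libraries. Those were vehicle replicates 2, 3 and 4 (adjusted p-values 0.0698, 0.123 and 0.126, limma) and LLY-283 replicates 1, 2 and 3 (0.111, 0.104 and 0.109). SRPK1 accounted for 50.1% ± 1.72 of the summed SRPK1 and SRPK2 TPM with vehicle and 51.5% ± 1.34 with LLY-283, with overlapping groups, and 52.0% ± 1.17 without LLY-283 replicate 4 (n = 3). The gene closest in pattern to SRPK2 was SALL3 (root mean square difference 0.033 over the 8 libraries), which was itself not called with all libraries (adjusted p = 0.0664, limma). SALL3 was called without LLY-283 replicate 4 (-0.18, adjusted p = 0.0470, limma) and without mitochondrial genes (-0.17, adjusted p = 0.0488, limma). SRPK2 overlaps KMT2E on the opposite strand (22.93 to 27.74 TPM).

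DYRK1A (ENSG00000157540, chr21:37365573-37526358, plus strand), a kinase encoded on chromosome 21 that acts on splicing factors among many substrates, had 19.65, 20.54, 24.09 and 23.54 TPM with vehicle and 21.87, 21.77, 22.96 and 19.05 TPM with LLY-283. The groups overlapped over most of their range. The log2 fold change was -0.03 (95% confidence interval -0.21 to 0.15, adjusted p = 0.787, limma) and its sign was not stable. It was 0.02 when libraries were quantile normalized, 0.01 with median-of-ratios size factors and 0.04 after correction for GC content and length, and 0.01, 0.0012 and 0.02 without vehicle replicate 3, vehicle replicate 4 and LLY-283 replicate 4.

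The speckle proteins SON and SRRM2 were the most abundant members, and their means went opposite ways. SON (ENSG00000159140, chr21:33543038-33577481, plus strand), which is needed for splicing of introns with weak splice sites, had 147.87, 135.63, 163.36 and 149.35 TPM with vehicle and 187.25, 169.26, 189.07 and 142.37 TPM with LLY-283. All LLY-283 libraries but replicate 4 were above the vehicle range. The log2 fold change was 0.20 (95% confidence interval -0.0012 to 0.40, adjusted p = 0.132, limma) with all libraries and 0.29 (0.14 to 0.44, adjusted p = 0.0135) without replicate 4. With all libraries it was also called after correction for GC content and length (0.29, adjusted p = 0.0226, limma), as were 2730 of 14457 genes tested in the upward direction. SON overlaps GART (65.51 to 69.72 TPM) and DONSON (29.38 to 37.23 TPM) on the opposite strand.
SRRM2 (ENSG00000167978, chr16:2752626-2772538, plus strand), a component of the spliceosome and scaffold of the speckle, had 622.05, 651.75, 674.78 and 651.79 TPM with vehicle and 598.79, 627.16, 627.74 and 475.01 TPM with LLY-283. Replicate 4 was far below the other LLY-283 libraries, which reached into the vehicle range. Its log2 fold change was -0.17 (95% confidence interval -0.35 to 0.01, adjusted p = 0.161, limma) and -0.07 (-0.14 to -0.0029, adjusted p = 0.111) without replicate 4. SRRM2 overlaps ELOB on the opposite strand (203.68 to 235.25 TPM). The antisense gene SRRM2-AS1 had 2.35, 1.26, 1.43 and 1.63 TPM with vehicle and 1.02, 1.05, 0.7 and 0.96 TPM with LLY-283, so that the groups did not overlap. Its log2 fold change was -0.75 (adjusted p = 0.0420, limma), and the adjusted p-value ranged from 0.0313 to 0.143 over 18 alternatives. At this low level the log2 fold change depended on the pseudocount, and was -0.58 with 0.5 TPM and -0.45 with 1 TPM. The call was lost without vehicle replicate 1, 3 or 4 or LLY-283 replicate 1, 2 or 3 (adjusted p-values 0.0545 to 0.0885, limma).

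**Figure D3:**
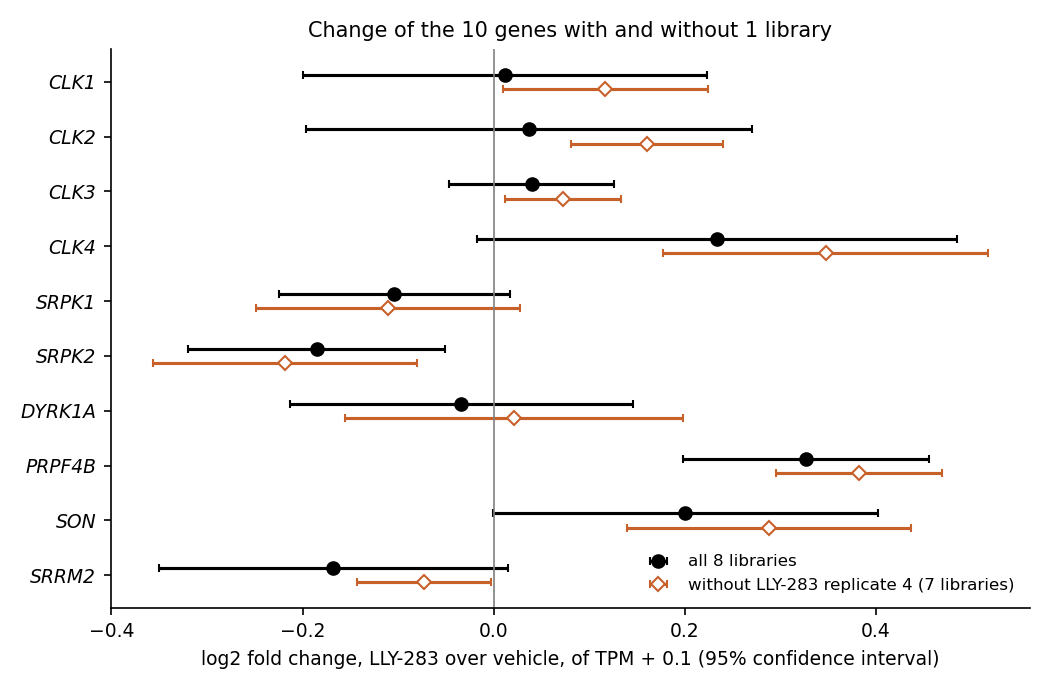
Log2 fold change of LLY-283 over vehicle for TPM + 0.1 (horizontal axis) of the 10 genes, with 95% confidence intervals from limma; filled circles use all 8 libraries and open diamonds leave out LLY-283 replicate 4. The intervals of PRPF4B (0.33 and 0.38) and SRPK2 (-0.19 and -0.22) exclude 0 in both fits. Those of the 4 CLKs and SON (above 0) and of SRRM2 (below 0) do so without that library only. The intervals are not adjusted for multiple testing, and CLK1, CLK3 and SRRM2 were called in neither fit. Without that library, 5866 of the 14478 genes tested had an unadjusted p under 0.05 (limma). It was set aside partly for its low values in the members, so no conclusion is drawn from the difference.

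Leaving out LLY-283 replicate 4 moved the fold changes of the CLKs, DYRK1A, PRPF4B, SON and SRRM2 upward and those of SRPK1 and SRPK2 slightly downward. On the log2 scale, that library differed from the mean of the other LLY-283 libraries by -0.49 for CLK2, -0.45 for CLK4, -0.42 for CLK1, -0.38 for SRRM2 and -0.35 for SON. The difference was -0.22 for both PRPF4B and DYRK1A, -0.13 for CLK3, 0.03 for SRPK1 and 0.13 for SRPK2. The median of this difference was -0.29 over the members and -0.02 over all genes tested. Most of the SR-related and speckle proteins described below were also lowest in that library. SREK1, for example, had 71.83 TPM there against 95.79 to 102.27 TPM in the other LLY-283 libraries, while RNPS1 was highest there (211.37 TPM). Without the library, the groups did not overlap for CLK1, CLK2, CLK3, CLK4, PRPF4B and SON (LLY-283 higher) and for SRPK2 (LLY-283 lower), 7 of 10 members against 37.8% of all genes. The library was set aside partly for its low values in the members, so this comparison cannot show that they differ from other genes. Rescaling the TPM values after removal of the genes of the mitochondrial genome left 1 member called increased and 1 called decreased, as with all genes.

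Several members share a feature of annotation that bears on what gene-level TPM means. In GENCODE release 44, 8 of 14 transcripts of CLK1, 7 of 13 of CLK4 and 13 of 26 of SRRM2 are classed as retaining an intron, against none of 7 of CLK2 and 1 of 9 of PRPF4B. The median share of such transcripts was 28.45% over the 10 members and 12.5% over the 12084 protein-coding genes tested. CLK1 and CLK4 are known to keep part of their RNA in the nucleus with introns unspliced. The TPM of a gene sums its annotated transcripts, so RNA with a retained intron and mature mRNA cannot be told apart here.

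The start regions of 9 members were matched by symbol to the promoter windows of RefSeq (GRCh38.p14, 300 bases around each annotated start, most of them upstream), in 19 windows. PRPF4B had no entry. Those of CLK4, CLK2 and SON are shown because these were the members with a window that were called increased without LLY-283 replicate 4. Capitals mark the letters TGACG or their reverse complement CGTCA, the core of the cyclic AMP response element. CLK4 lies at chr5:178627001-178627300 (minus strand), CLK2 at chr1:155273455-155273754 (minus strand) and SON at chr21:33542788-33543087 (plus strand), each printed 5′ to 3′ along the gene.
CLK4: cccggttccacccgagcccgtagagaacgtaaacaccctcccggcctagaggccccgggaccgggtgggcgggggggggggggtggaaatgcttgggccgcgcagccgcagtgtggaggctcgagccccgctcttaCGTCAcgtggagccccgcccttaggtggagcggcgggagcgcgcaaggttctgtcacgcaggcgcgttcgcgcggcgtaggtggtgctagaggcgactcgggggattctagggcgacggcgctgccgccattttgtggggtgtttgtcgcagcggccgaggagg
CLK2: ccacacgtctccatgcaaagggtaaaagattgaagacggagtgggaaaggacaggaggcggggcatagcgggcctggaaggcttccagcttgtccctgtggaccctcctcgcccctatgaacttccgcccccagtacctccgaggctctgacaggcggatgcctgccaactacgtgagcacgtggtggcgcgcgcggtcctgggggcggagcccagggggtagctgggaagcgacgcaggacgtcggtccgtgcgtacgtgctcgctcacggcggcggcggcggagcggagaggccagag
SON: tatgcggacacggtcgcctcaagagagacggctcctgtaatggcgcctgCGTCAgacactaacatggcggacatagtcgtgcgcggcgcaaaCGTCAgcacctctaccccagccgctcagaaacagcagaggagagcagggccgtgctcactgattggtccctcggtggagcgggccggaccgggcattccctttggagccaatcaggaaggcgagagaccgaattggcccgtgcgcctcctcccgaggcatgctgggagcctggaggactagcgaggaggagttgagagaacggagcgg
The core element occurred once in the CLK4 window, where it overlaps an E-box (CACGTG), at 2 places in the SON window and not in the CLK2 window, which holds an E-box without it. It was present on either strand in 8 of the 19 windows of the members (CLK1, CLK3, CLK4, SRPK2, DYRK1A, SON and SRRM2) and in 24.6% of all 35116 windows. The E-box was found in 3 member windows (CLK2, CLK4 and DYRK1A) and 7.26% of all windows, CCAAT or its reverse complement in 4 and 34.6%, and TATAAA or its reverse complement in 3 and 11.5%. These are matches of letters, and several windows belong to the same gene. The 2 windows of CLK1 overlap and hold the same core element, which is counted in both.

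The substrates and partners of these kinases were taken as 4 lists of genes, all of which passed the filter on low values, and are described by counts beside those of all genes tested, of which 8.61% were called increased and 17.6% decreased. Increased genes were thus 32.9% of all calls, and they were 50.7% when libraries were quantile normalized, 50.8% with median-of-ratios size factors and 63.7% after correction for GC content and length.
Of the 14 genes of SR proteins, 6 were called increased (SRSF1, SRSF2, SRSF3, SRSF4, SRSF7 and TRA2B) and 1 decreased (SRSF5), with a median log2 fold change of 0.06. SRSF4, an SR protein with a long tail of arginine and serine, had the smallest p-value. It stood at 147.9 ± 2.02 TPM with vehicle and 187.1 ± 2.26 TPM with LLY-283 (mean ± SD of 4 libraries), and the log2 fold change was 0.34 (adjusted p = 4.25e-05, limma). SRSF7 and SRSF3, which also act in mRNA export, had log2 fold changes of 0.36 (adjusted p = 7.44e-05, limma) and 0.27 (adjusted p = 0.000340). SRSF5 was at 261.8 ± 15.8 TPM with vehicle and 226.5 ± 16.4 TPM with LLY-283, and its log2 fold change was -0.21 (adjusted p = 0.0280, limma), a call that was lost under 8 of the 19 alternatives. It was lost without vehicle replicate 2 (adjusted p = 0.0650, limma), vehicle replicate 3 (0.0816), vehicle replicate 4 (0.0743) or LLY-283 replicate 2 (0.0635). No gene of this list changed by more than 1.5-fold. Without LLY-283 replicate 4, 7 were called increased and 1 decreased, against 10.4% and 18.4% of all genes. The added gene was TRA2A (0.13, adjusted p = 0.0150, limma).
Among the 23 genes of SR-related and speckle proteins, 10 were called increased and none decreased (5 of 23 had lower values, against 60.2% of all genes, and 15 of 23 an unadjusted p under 0.05 in limma, against 38.6% of all genes), with a median log2 fold change of 0.11. Without LLY-283 replicate 4 these counts were 15 and 1, against 10.4% and 18.4% of all genes. As that library was the lowest LLY-283 library for most of these genes, no conclusion is drawn from this rise. Without LLY-283 replicate 2 they were 10 and 1, against 945 and 2030 of the 14478 genes tested. The increased genes with all libraries were RBM39, SREK1, SRRM1, BCLAF1, RSRC2, RNPS1, ACIN1, PPIG, LUC7L2 and THRAP3. LUC7L2 was not called without vehicle replicate 1, 2 or 4 or LLY-283 replicate 1 or 3 (adjusted p-values 0.0653 to 0.0817, limma). RBM39, a splicing factor related to U2AF, was at 193.4 ± 3.87 TPM with vehicle and 264.7 ± 17.5 TPM with LLY-283, and its log2 fold change was 0.45 (adjusted p = 0.000232, limma). SREK1, an SR-like regulator, had the largest log2 fold change of the list, 0.58 (adjusted p = 0.00292, limma). SRRM1, the partner of SRRM2, had one of 0.40 (adjusted p = 0.000897, limma), while SRRM2 itself was not called.
Of the 12 related kinases, CDK11B was called increased (log2 fold change 0.10, adjusted p = 0.0297, limma) and DYRK1B decreased (-0.28, adjusted p = 0.0182). CDK11B was no longer called under 6 alternatives, among them the omission of vehicle replicate 1 or 4 or LLY-283 replicate 1 or 2 (adjusted p-values 0.0613 to 0.0664, limma), and DYRK1B not without vehicle replicate 3 (0.0503). Reads may be divided between CDK11B and the near-identical CDK11A, so its value is uncertain, and CDK11A itself was not called with all libraries (0.13, adjusted p = 0.284, limma) and was called without LLY-283 replicate 4 (0.23, adjusted p = 0.00249). Of the 13 phosphatases, import factors and SRPK partners, DNAJC8 (log2 fold change 0.12, adjusted p = 0.0196, limma), a chaperone that binds SRPK1, and AHSA1 (0.19, adjusted p = 0.0485), an activator of HSP90, were called increased and none was called decreased (5 of 13 genes, 38.5%, had an unadjusted p under 0.05, close to the 38.6% of all genes). DNAJC8 was not called without vehicle replicate 1 (adjusted p = 0.0511, limma), and AHSA1 not without any library other than LLY-283 replicate 1 (adjusted p-values 0.0598 to 0.128). The catalytic subunits PPP1CA, PPP1CB and PPP1CC, which remove phosphate from SR proteins, and the importin TNPO3, which carries phosphorylated SR proteins into the nucleus, were not called.

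**Figure D4:**
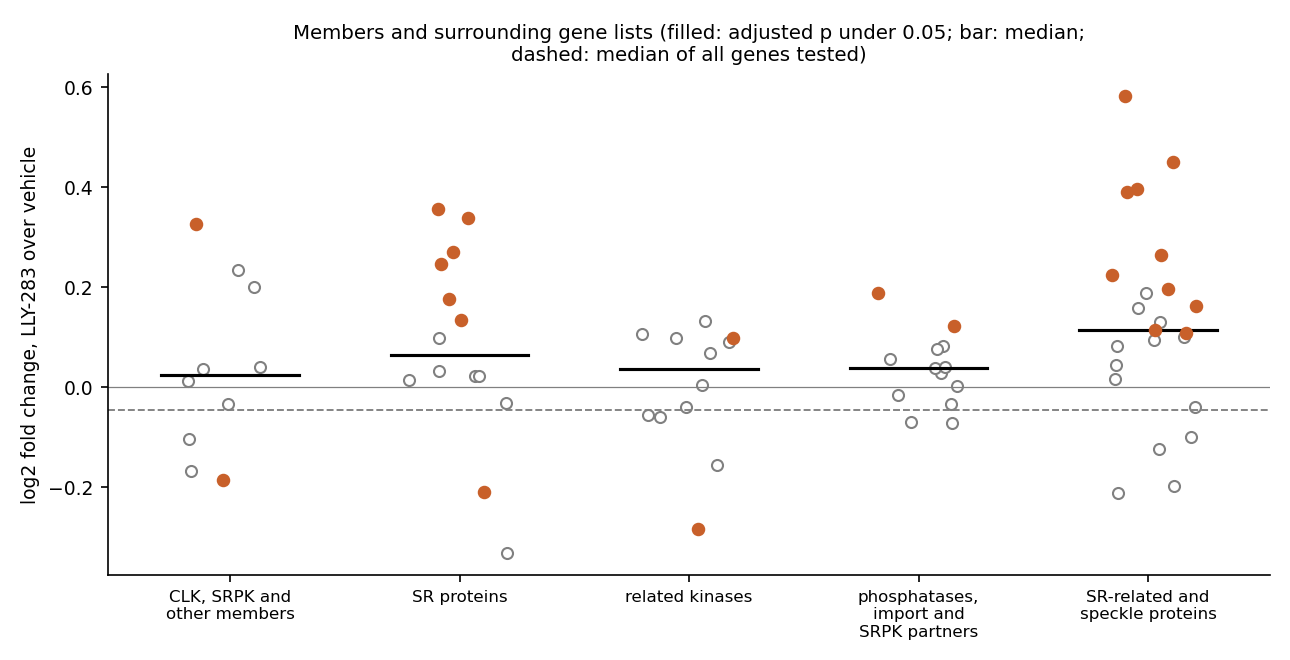
Log2 fold change of LLY-283 over vehicle (vertical axis) for the 10 members and the 4 surrounding lists; each point is a gene, filled where its adjusted p-value was under 0.05, the bar is the median of the list and the dashed line the median of all 14478 genes tested. The 10 called genes of SR-related and speckle proteins all lie above 0, whereas among the members 1 called gene lies above and 1 below.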

How the data were processed

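RNA was captured with oligo-dT beads. Per the labels and the study's methods, the authors trimmed adapters with Cutadapt 1.18, mapped reads to GRCh38 with STAR, estimated expression with RSEM on GENCODE release 41 and deposited TPM per gene. The submitters' processing notes give STAR 2.7.0f and RSEM 1.3.1, and the methods give other versions of both. Each library sums to 1000000 or 1000001 TPM.

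The deposited TPM were taken to log2(TPM + 0.1), genes averaging under 1 TPM were left out, and both treatments were compared in limma 3.58.1 under R 4.3.3 (lmFit, eBayes with a mean-variance trend, two-sided). Count models were not used. The fit was tested on simulated data for this comparison, with 14478 genes of which 200 were changed by 1 on the log2 scale. It recovered 174 of them (87%) with 0 unchanged genes called. The largest change of a member was 0.33 (PRPF4B), so this recovery does not tell how often changes of the members' size would be called. The alternatives were pseudocounts of 0.5 and 1, a filter at 5 TPM or none, other scalings, other forms of eBayes, a replicate block and each library left out. A correction for GC content and transcript length (splines with 4 degrees of freedom each) was added after seeing the data. The members and lists were chosen with earlier results of these data known. All members were named, together with the called gene of smallest p-value per list and direction, antisense genes and pseudogenes of members, and the gene nearest in pattern to each called member. Any other gene was chosen for naming after its values were seen. Positions and transcript classes came from GENCODE release 44. Splicing events were not analysed here.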

Additional observations from a re-analysis of the deposited data

Results flagged for a closer look

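In 3 of the 70 groups of 4 libraries examined among the genes described, a library lay apart from the other 3, with a gap to its nearest neighbour, relative to the group's range, above Dixon's 95% critical value. CLK1 in vehicle replicate 2 had 39.11 TPM, CDK11B in LLY-283 replicate 3 had 56.68 TPM and DNAJC8 in LLY-283 replicate 4 had 234.56 TPM. Chance gives about 5% of such groups, and over all genes tested 7.02% of groups were past the limit.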

How the results depend on the processing

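PRPF4B was called under all 19 alternatives and SRPK2 under 8. Members called increased were 2 under quantile normalization, against 1871 of all 14478 genes tested. They were 4 after correction for GC content and length, against 2730 of 14457 genes, and 1 to 4 with a library left out. Members called decreased were 0 without a filter, under quantile normalization, with median-of-ratios scaling and without the eBayes trend. They were also 0 after the GC and length correction, and 0 to 1 with a library left out. The cause was not tested. All genes called increased numbered 1871 under quantile normalization, 1927 with median-of-ratios scaling and 2730 after the GC and length correction, against 1247, and those called decreased 1558 after the latter, against 2541. Above 1.5-fold, 25, 126 and 93 increased (filter at 5 TPM, quantile, GC and length), against 57, and 202, 260 and 313 decreased (filter at 5 TPM, quantile, pseudocount 1), against 504. SR proteins called decreased were 0 without a filter, without the eBayes trend and after the GC and length correction (0 to 1 with a library left out), and for SR-related proteins 0 to 1. Related kinases called increased were 0 without mitochondrial genes and 4 after the GC and length correction (0 to 2), and decreased 0 under quantile normalization (0 to 1). Phosphatases, import factors and partners called increased were 1 with pseudocounts of 0.5 and 1, without a filter and without the eBayes trend, 4 with median-of-ratios scaling and 7 after the GC and length correction (0 to 2), and decreased 1 with a pseudocount of 1, under quantile normalization and without mitochondrial genes (0 to 1). Without mitochondrial genes the summed CLK TPM was 199.4 with vehicle and 205.7 with LLY-283. Log2 fold changes whose sign changed were those of CLK1 (-0.0487 to 0.117 with a library left out), CLK2 (-0.0135 to 0.160), DYRK1A (0.0158 quantile, 0.0108 median-of-ratios, 0.0438 GC and length, -0.0852 to 0.0209 with a library left out) and PRMT5 (-0.00444 quantile, -0.00337 without mitochondrial genes, -0.0295 to 0.0352 with a library left out).

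Deviations of same-numbered libraries from their group means had correlations of -0.09 to 0.03 over all genes tested. These values show no shared deviation, but they cannot tell whether same-numbered libraries were handled together. With the replicate block, 1 member was called increased and 1 decreased, 1095 of all genes increased and 2201 decreased, and of the lists 0 SR proteins decreased, 0 related kinases increased and 1 phosphatase or partner increased. TPM values keep no depth, so counting error could not be given.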
